A study of Rattus norvegicus with 18 samples.

Results

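The comparison described here sets bone marrow mesenchymal stem cells (BMSC) from rats after 4 months of a high-fat diet (HFD) against the same cells from rats after 4 months of a normal diet (ND). It takes 6 of the 18 arrays of the study, chosen by diet and feeding time in the sample titles, 3 ND and 3 HFD. The animals were Sprague-Dawley rats aged 6 weeks when the diets began. The ND animals ate a 100% basal diet, and the HFD animals ate 60% basal diet with 20% lard, 10% sucrose and 10% egg yolk powder. The labels list no other treatment and no genetic change for either group, and the age they give for a sample equals the feeding time. Cells were grown out by plating whole marrow in both groups. The sample labels place the harvest at passage 3 and the series description at passage 1. Total RNA was hybridised to Affymetrix rat arrays, and the remaining 12 arrays, 3 per diet after 1 and 2 months, enter here as a source of the shared spread and for differences between times. The series text describes 3 animals per diet at each feeding time. No label ties each array to its own animal beyond giving n as 3, so the p-values measure the spread between these arrays, which may be technical.

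Mesenchymal stem cells are the adherent, fibroblast-like precursors of bone, marrow fat and cartilage cells, and they also make the factors that hold blood stem cells in the marrow. A fatty diet is known to load the marrow with adipocytes and to alter cholesterol and fatty acid handling in many tissues. Whole-marrow plating also carries macrophages, which adhere to plastic and divide little, so early-passage cultures are often a mixture of stromal cells and macrophages. In dividing cells a first wave of genes, driven by E2F factors, supplies DNA replication, and a second wave, held back by the DREAM complex and opened by B-MYB and FOXM1, supplies mitosis.

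All values below are log2 of the deposited intensity, named log2 units, and every difference is HFD minus ND. A gene stands for its brightest probe set that carries 1 gene symbol. Values of an array group are given in the order of replicates 1, 2 and 3. Median intensities of the 6 arrays lay between 26.2 and 27.1 on the linear scale. The excess of 3' over 5' actin signal, which grows as RNA breaks down, was 0.50 to 0.66 log2 units. It was lowest on ND replicate 1 and highest on ND replicate 2, with ND replicate 3 at 0.57 and the HFD arrays at 0.58 to 0.59. The stromal marker Thy1 read 11.71 to 12.02 log2 units on the 6 arrays and the integrin Itgb1 10.99 to 11.32. The macrophage genes Cd68, at 9.08 to 10.78, and Lyz2, at 12.0 to 12.97, were also measured well above the filter level of 3.22 on every one of the 6.

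After 4 months no gene differed between the diets beyond the spread between arrays. In limma, 0 of 21729 probe sets passed a Benjamini-Hochberg adjusted p under 0.05, and the lowest adjusted p was 0.9994. At an unadjusted p under 0.05 there were 811 probe sets, or 3.73%, of which 328 (1.51%) were higher and 483 (2.22%) lower in HFD. Were no probe set different, 1086 would be expected there. Among the 11446 named genes 348, or 3.04%, had an unadjusted p under 0.05, 146 (1.28%) higher and 202 (1.76%) lower. Over the probe sets 48.5% stood higher in HFD, and all HFD arrays lay above all ND arrays for 828 (3.81%) and below them for 1027 (4.73%). The HFD arrays all lay above the ND arrays for 389 named genes (3.4%) and all below them for 531 (4.64%), together 8.04%. By sign alone, 47.5% of the named genes stood higher and 52.5% lower in HFD, with a median difference of -0.01 log2 units.

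Each gene's interval, not adjusted for the number of genes, limits how large its average difference could be, given the spread between arrays. Where that spread is technical, the interval does not bound a difference between animals. The 95% interval of the difference lay wholly within a 2-fold change in either direction for 9883 of the 11446 named genes, or 86.3%, and its median half-width was 0.34 log2 units. The share was 79.5% at 2 months and 86.3% at 1 month. The median absolute difference of a named gene was 0.11 log2 units at 4 months, 0.20 at 2 months and 0.14 at 1 month. A change of 2-fold or more was measured for 63 named genes (0.55%) at 4 months. At 2 months, by the same test, 552 probe sets (2.54%) passed, and at 1 month 0 passed. Unadjusted p-values under 0.05 were held by 4524 probe sets (20.8%) at 2 months and by 2124 (9.77%) at 1 month.

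**Figure D1:**
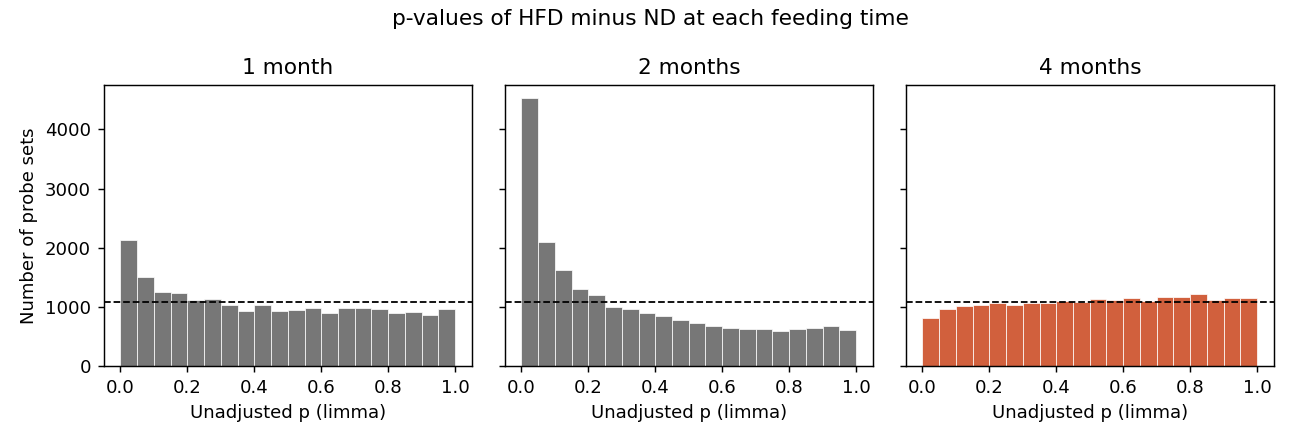
Number of probe sets by unadjusted limma p of HFD minus ND, in bins of 0.05, after 1, 2 and 4 months of feeding, 21729 probe sets each. The dashed line is the 1086 per bin that would be expected with no difference; at 4 months the first bin holds 811, under the line, and at 2 months it holds 4524.

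The 4-month arrays did not all group by diet. The correlation over all tested probe sets was 0.952 to 0.977 between ND arrays, 0.984 to 0.986 between HFD arrays and 0.958 to 0.988 between arrays of different diets. ND replicate 2 and HFD replicate 1 were each other's nearest array, at 0.988, and ND replicate 1 lay nearest to HFD replicate 3, at 0.984. HFD replicates 2 and 3 were nearest to each other, at 0.986, and ND replicate 3 lay nearest to ND replicate 1, at 0.977. The ND cultures varied more among themselves than the HFD cultures did, at 4 months as at 1 and 2 months. The SD over 3 arrays exceeded 1 log2 unit for 363 named genes in ND and for 46 in HFD, and it was larger in ND for 7433 of the 11446, or 64.9%. The median SD was 0.19 log2 units in ND and 0.14 in HFD. At 1 month it was 0.19 and 0.16, and at 2 months 0.18 and 0.16. An SD over 1 was held by 510 named genes in ND and 319 in HFD at 1 month, and by 463 and 273 at 2 months. By median SD the ND arrays of 4 months were thus like those of other times, and the HFD arrays of 4 months were the tightest group. No test of the difference in spread was made, because 3 arrays a group are few.

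Genes of cell division stood lower in HFD on average, and the arrays overlapped for each of them. Of the 57 tested genes of G2 and mitosis, out of 65 listed, 57 had a negative difference, with a median of -0.66 log2 units, where 52.5% of all named genes were negative and their median was -0.01. Of the 42 tested genes of G1, S phase and DNA replication, out of 46 listed, 42 were negative with a median of -0.38. No member passed the adjusted test. Of these 99, 0 had arrays that did not overlap, against 8.04% of all named genes. An unadjusted p under 0.05 was held by 1, the kinetochore gene Cenpk, against 3.04% of all named genes. The members are measured on the same 6 cultures and rise and fall together, so their common sign is a single observation on 3 arrays against 3. In bulk RNA of this kind fewer dividing cells and less of these RNAs per cell cannot be told apart.

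The values by array show where the average came from. Kif23, a kinesin of the midbody needed to finish cell division, read 8.59, 6.78 and 8.87 log2 units in ND and 6.58, 7.47 and 7.59 in HFD. Cdc20, which activates the ubiquitin ligase that ends mitosis, read 8.48, 6.89 and 8.63 in ND and 6.58, 7.66 and 7.45 in HFD. Cks2, a small partner of the cyclin-dependent kinases, read 10.08, 8.74 and 10.29 in ND and 8.46, 9.1 and 9.43 in HFD. In each of the 3 genes ND replicates 1 and 3 were the highest arrays, and ND replicate 2 lay down among the HFD arrays, just above HFD replicate 1. The differences were -0.87 ± 0.43 (SE, n = 3 per group) for Kif23, -0.78 ± 0.42 for Cdc20 and -0.71 ± 0.37 for Cks2, with an adjusted p of 0.9994 each.

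Other regulators of mitosis were also highest on ND replicates 1 and 3. The spindle checkpoint kinase Ttk read 7.03, 5.33 and 7.67 in ND and 4.99, 5.91 and 6.29 in HFD, a difference of -0.94 ± 0.48. Hmmr, a protein of the spindle poles, read 7.75, 6.08 and 8.04 in ND and 5.85, 6.7 and 6.84 in HFD, a difference of -0.83 ± 0.45. Cks1b, the relative of Cks2 that serves in the breakdown of CDK inhibitors, read 9.24, 8.34 and 9.61 in ND and 8.0, 8.53 and 8.88 in HFD, a difference of -0.59 ± 0.30. ND replicate 2 was below at least one HFD array in every one of these. Cenpk itself read 7.87, 7.04 and 8.27 in ND and 6.41, 6.76 and 7.57 in HFD, and its difference was -0.81 ± 0.34 (unadjusted p = 0.0309, adjusted p = 0.9994). The mitotic transcription factor Foxm1 read 5.8, 4.75 and 6.21 in ND and 4.47, 5.11 and 5.3 in HFD. The master mitotic kinase Cdk1 differed by -0.70 ± 0.44 and its cyclin Ccnb1 by -0.77 ± 0.49.

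Replication genes had smaller differences. Mcm7, a subunit of the replicative helicase, read 8.34, 7.37 and 8.87 in ND and 7.15, 7.68 and 8.26 in HFD, a difference of -0.50 ± 0.36. Orc6, of the complex that marks replication origins, read 6.8, 5.72 and 7.09 in ND and 5.24, 6.11 and 6.56 in HFD, a difference of -0.57 ± 0.32. Tk1, the thymidine kinase of dividing cells, read 7.81, 6.14 and 7.82 in ND and 6.08, 6.83 and 6.86 in HFD, a difference of -0.66 ± 0.42. HFD replicate 3 reached closest to ND replicates 1 and 3 in Mcm7 and Orc6. The DNA polymerase subunit Pole differed by -0.70 ± 0.41 and the cyclin Ccne1, which opens S phase, by -0.52 ± 0.36, both with overlapping arrays.

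**Figure D2:**
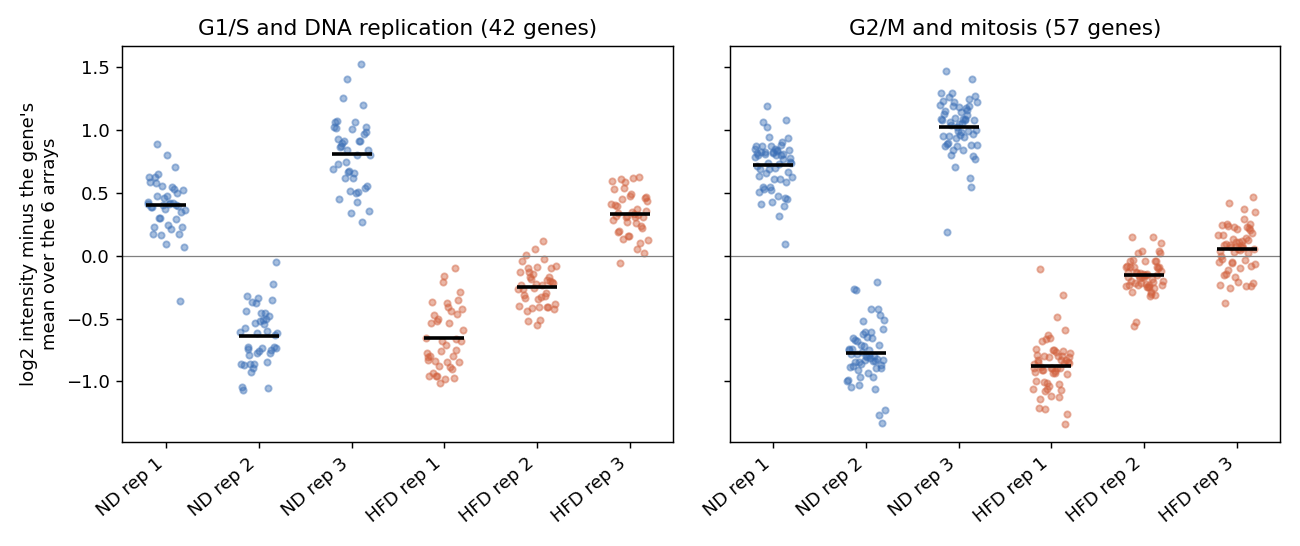
Each point is 1 gene on 1 array of 4 months, as log2 intensity minus that gene's mean over the 6 arrays, for 42 genes of G1, S phase and DNA replication and 57 genes of G2 and mitosis; ND arrays are blue, HFD arrays orange, and black bars are list means. ND replicates 1 and 3 stand highest in the mitosis genes, at 0.72 and 1.02, while ND replicate 2, at -0.77, lies beside HFD replicate 1, at -0.87.

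Counted over the lists, the lowest 2 of the 6 arrays were ND replicate 2 and HFD replicate 1 in 54 of the 57 mitosis genes (94.7%) and in 36 of the 42 replication genes (85.7%), against 15.8% of all named genes. The highest 2 were ND replicates 1 and 3 in 56 of the 57 mitosis genes (98.2%) and in 24 of the 42 replication genes (57.1%), against 15.4% of all. The mean of the mitosis list, relative to the 6 arrays, had an SD of 0.96 over the 3 ND arrays, around 0.32, and of 0.49 over the 3 HFD arrays, around -0.32. The median difference of the mitosis genes was -1.23 log2 units without ND replicate 2 and -0.32 without ND replicate 3. For the replication genes it was -0.81 without ND replicate 2 and -0.08 without ND replicate 3. With the mean of the macrophage genes as a covariate the medians were -0.67 and -0.39, close to those without it.

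Since the mitosis genes rose and fell together from array to array, the bases before a listed start are shown for 6 of them, from the RefSeq table of the GRCr8 assembly. The 6 were picked from the named mitosis genes as examples that carry CCAAT, and 5 of them carry TTTGAA as well. In windows of the same length Bub1b and Aurka held neither motif, Cenpk held CCAAT and Birc5 held TTTGAA. The windows of Aurka and Birc5 lie inside the annotated gene, and those of Bub1b and Cenpk lie partly inside it. Each line holds the 150 bases that end just before the listed start, written 5′ to 3′ in the direction of the gene. For Cdc20, Cks2 and Cks1b that start is the outer edge of the annotated gene. For Kif23, Ttk and Hmmr the window lies inside the annotated gene, which spans chr8:71293439-71321911, chr8:93632678-93672664 and chr10:25635249-25665389. Positions in these 3 genes are therefore not counted from the outer edge. Capitals mark CCAAT, the box bound by NF-Y, and TTTGAA, the usual form of the cell cycle genes homology region through which DREAM and B-MYB complexes act, read on either strand, so that ATTGG and TTCAAA are the same motifs on the other strand. The windows are chr8:71320585-71320734 on the minus strand for Kif23, chr5:137255800-137255949 on the minus strand for Cdc20, chr17:13727520-13727669 on the minus strand for Cks2, chr2:177135334-177135483 on the minus strand for Cks1b, chr10:25665216-25665365 on the minus strand for Hmmr and chr8:93634489-93634638 on the plus strand for Ttk.
Kif23: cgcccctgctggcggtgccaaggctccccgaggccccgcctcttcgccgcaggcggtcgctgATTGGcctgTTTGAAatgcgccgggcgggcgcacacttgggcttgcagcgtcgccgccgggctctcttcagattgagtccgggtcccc
Cdc20: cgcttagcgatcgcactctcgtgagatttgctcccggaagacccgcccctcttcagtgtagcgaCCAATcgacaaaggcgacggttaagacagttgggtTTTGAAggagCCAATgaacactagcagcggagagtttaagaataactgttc
Cks2: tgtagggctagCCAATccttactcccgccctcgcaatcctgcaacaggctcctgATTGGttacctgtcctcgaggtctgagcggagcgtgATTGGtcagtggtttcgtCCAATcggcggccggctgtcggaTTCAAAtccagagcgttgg
Cks1b: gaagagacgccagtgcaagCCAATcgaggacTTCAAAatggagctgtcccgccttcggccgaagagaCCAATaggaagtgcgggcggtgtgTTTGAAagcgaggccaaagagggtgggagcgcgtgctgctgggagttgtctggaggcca
Hmmr: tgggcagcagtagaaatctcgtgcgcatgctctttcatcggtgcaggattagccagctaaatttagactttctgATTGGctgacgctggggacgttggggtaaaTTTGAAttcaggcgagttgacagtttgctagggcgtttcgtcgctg
Ttk: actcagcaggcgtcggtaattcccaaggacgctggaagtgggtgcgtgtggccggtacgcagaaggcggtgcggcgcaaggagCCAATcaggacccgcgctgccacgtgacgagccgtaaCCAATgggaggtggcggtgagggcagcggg

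The same motifs were counted over the 250 bases before the listed start. A promoter was in the table for 50 of the 57 mitosis genes, and 76% of these held CCAAT, 54% TTTGAA and 50% both. Over the 9529 tested named genes with a promoter the shares were 35.6%, 9.88% and 3.78%, and over all 27457 promoters 34.3%, 16% and 5.76%. For the replication genes, 37 of 42 with a promoter, the shares were 51.4%, 10.8% and 5.41%. TTTGGCGC, a core form of the E2F site, was found in 13.5% of the replication genes' promoters and in 0 of the 50 mitosis genes' promoters, against 0.682% of those of tested genes. Both strands were read, each motif was counted whether or not it shares end letters with another, and a match describes the letters and not a bound site. In Kif23 the CCAAT motif begins 88 bases and TTTGAA 79 bases before the listed start, and in Hmmr 76 and 46. In Cdc20 the TTTGAA motif at 51 lies between CCAAT motifs at 86 and 41.

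Genes that restrain the cell cycle did not mirror the division genes. Of 18 tested CDK inhibitors and senescence regulators 8 were higher and 10 lower in HFD, and their median of -0.03 turned to 0.00 with quantile normalization. Cdkn1a, the p53 target p21, read 9.31, 8.85 and 9.56 in ND and 8.87, 8.93 and 8.81 in HFD, a difference of -0.37 ± 0.20, while its second probe set gave 0.36. Cdkn2a, the locus of p16 and p19ARF, read 7.67, 6.31 and 7.16 in ND and 6.96, 6.01 and 6.25 in HFD, a difference of -0.64 ± 0.40. Both were highest on ND replicates 1 and 3, as the mitosis genes were. Ccng1, another p53 target, had arrays that did not overlap, at 10.63, 10.4 and 10.53 in ND and 10.07, 10.22 and 10.21 in HFD (-0.35 ± 0.13, unadjusted p = 0.0204, adjusted p = 0.9994). Of 20 tested DNA repair genes 18 were lower in HFD, with a median of -0.23, and 4 had an unadjusted p under 0.05 and were lower, where 1.76% of all named genes were. The median was -0.06 without HFD replicate 1 and -0.56 without ND replicate 2. These 4 were the recombination genes Rad54l (-0.74 ± 0.27) and Xrcc2 (-0.77 ± 0.31), the checkpoint kinase Atr (-0.39 ± 0.15) and Fanca of the crosslink repair pathway (-0.54 ± 0.22), whose arrays overlapped.

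Macrophage genes moved between the arrays as well, in another order. Of 29 tested macrophage and monocyte markers, out of 34 listed, 26 were higher in HFD with a median of 0.41 log2 units. Among the 29, 0 had arrays that did not overlap and 0 had an unadjusted p under 0.05, against 8.04% and 3.04% of all named genes. C1qb, a chain of the complement protein C1q made by macrophages, read 3.37, 9.05 and 3.35 in ND and 8.0, 7.32 and 6.4 in HFD, a difference of 1.98 ± 1.36. ND replicates 1 and 3 were thus near the filter level for C1qb while ND replicate 2 was the highest of the 6. The receptor Csf1r read 6.44, 8.18 and 5.95 in ND and 7.96, 6.91 and 8.03 in HFD, a difference of 0.78 ± 1.21. Cd68, a lysosomal protein, read 9.74, 10.78 and 9.08 in ND and 10.29, 9.84 and 10.2 in HFD, a difference of 0.24 ± 1.39. The list mean relative to the 6 arrays ranged from -0.97 to 0.80 in ND and from 0.09 to 0.50 in HFD. ND replicate 2 was highest in 20 and ND replicate 3 lowest in 23 of the 29 genes.

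The macrophage median was 0.80 without ND replicate 2 and 0.04 without ND replicate 3. Of 10 tested genes of MHC class II presentation 10 were higher in HFD, with a median of 0.34 and overlapping arrays. That median was 0.13 without HFD replicate 3 and 0.12 with the macrophage mean as a covariate. The largest was the invariant chain Cd74, at 3.51, 4.03 and 3.04 in ND and 3.73, 3.53 and 5.34 in HFD, a difference of 0.67 ± 0.42. Its HFD average rests on replicate 3. The ND arrays that were high in mitosis genes were low in macrophage genes. The lymphocyte gene Cd3e read 2.88 to 3.46 and the haemoglobin gene Hbb 4.80 to 5.06 on the 6 arrays.

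**Figure D3:**
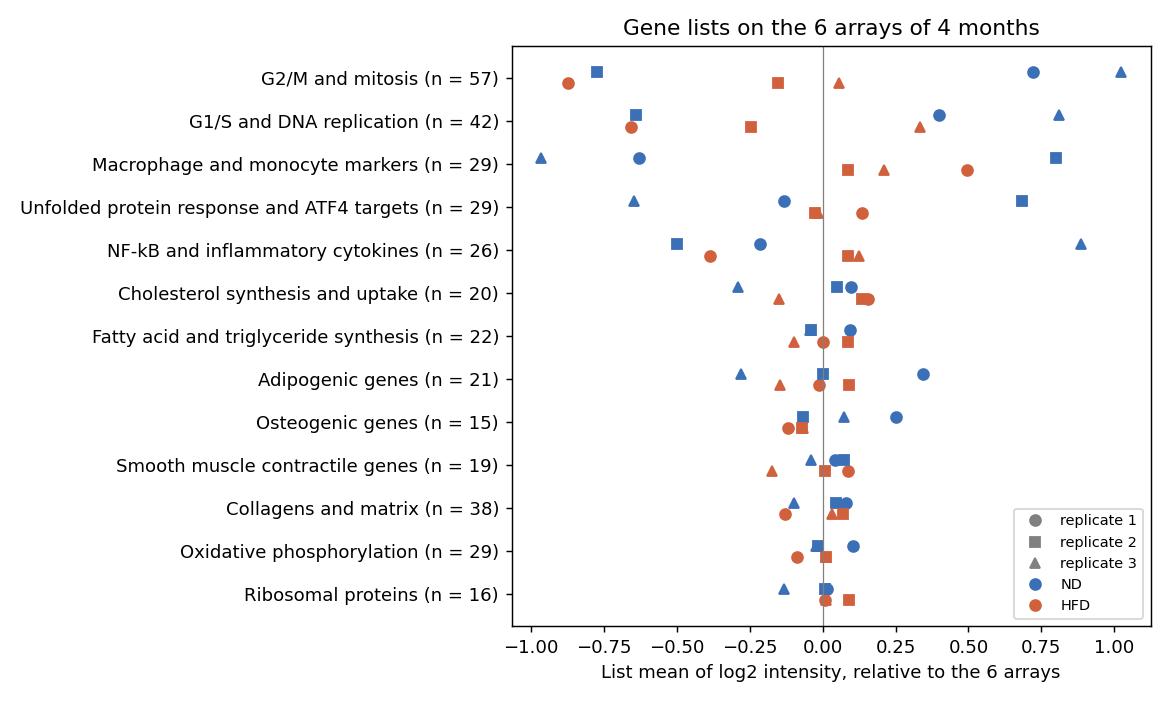
Mean of each gene list on each of the 6 arrays of 4 months, in log2 units relative to the mean of the 6, with ND in blue and HFD in orange, replicates by symbol and the number of genes in brackets. The ND arrays span -0.77 to 1.02 for mitosis genes, -0.97 to 0.80 for macrophage markers and -0.65 to 0.68 for the unfolded protein response, and the HFD arrays overlap them in these lists.

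Stress programmes varied inside the ND group. The unfolded protein response restores folding capacity in the endoplasmic reticulum. Of its 29 tested genes, ATF4 targets included, 13 were higher and 16 lower in HFD with a median of -0.04, yet ND replicate 2 was the highest array in 26 of the 29, against 2485 of all 11446 named genes. The median was 0.26 without ND replicate 2 and -0.16 without ND replicate 3. Creld2, an endoplasmic reticulum chaperone-like protein, read 8.81, 11.08 and 8.7 in ND and 8.84, 8.64 and 8.82 in HFD. Manf, a secreted stress protein of the same compartment, read 10.55, 11.27 and 10.62 in ND and 10.47, 10.45 and 10.56 in HFD. For both genes a single ND array stood out and the other five read alike. Dnajc3, a cochaperone that also inhibits the kinase PERK, was lower on every HFD array, at 9.44, 10.11 and 9.52 in ND and 9.02, 9.2 and 9.28 in HFD (-0.52 ± 0.16, unadjusted p = 0.00622, adjusted p = 0.9994). Phgdh, the ATF4 target that opens serine synthesis, read 8.9, 9.12 and 6.82 in ND and 8.99, 9.07 and 9.19 in HFD.

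Inflammatory genes singled out another ND array. Of 26 tested NF-kB targets and cytokines 14 were higher and 12 lower in HFD, with a median of 0.02, and ND replicate 3 was the highest in 19 of the 26, against 2618 of all 11446. The median was 0.22 without ND replicate 3, -0.09 without ND replicate 1 and -0.25 with the macrophage mean as a covariate. Csf3, the cytokine G-CSF, read 2.9, 2.87 and 8.12 in ND and 2.9, 3.4 and 3.92 in HFD, a difference of -1.22 ± 1.03 that was 0.53 without ND replicate 3. Csf3 cleared the intensity filter only through that array, so its high value there is a description and no support. ND replicates 1 and 2 and HFD replicate 1 read under the filter level of 3.22. Tnfaip3, the feedback inhibitor A20, read 6.82, 7.04 and 8.1 in ND and 6.54, 6.93 and 7.0 in HFD. Of 12 tested complement and acute phase genes 6 were higher and 6 lower, with a median of -0.02 that was 0.03 under quantile normalization and 0.55 without ND replicate 3. Of 25 interferon response genes 12 were higher and 13 lower with a median of -0.002. The GTPase Mx2 was separated, at 3.13, 3.23 and 3.28 in ND and 3.74, 3.3 and 3.63 in HFD (0.34 ± 0.14, unadjusted p = 0.03, adjusted p = 0.9994). Its ND values lie at the filter level of 3.22, and Mx2 cleared that filter only through its HFD arrays of 4 months. Its separation is therefore no support for a difference. With 16 added to every intensity before the logarithm the difference was 0.14.

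Lineage genes of bone and fat gave no separation as groups. Of 15 tested osteogenic genes 7 were higher and 8 lower in HFD, with a median of -0.31 that was 0.00 without ND replicate 1 and -0.10 with the macrophage mean as a covariate. Bmp2, the bone-inducing growth factor, read 5.7, 6.59 and 6.83 in ND and 4.99, 4.76 and 5.9 in HFD, a difference of -1.16 ± 0.66. Alpl, the alkaline phosphatase of early osteoblasts, read 5.74, 4.41 and 6.0 in ND and 4.14, 4.72 and 4.96 in HFD. The collagen Col1a1 read 12.38, 12.43 and 12.04 in ND and 12.41, 12.48 and 12.47 in HFD. All 3 had overlapping arrays. Enpp1, which makes the mineralization inhibitor pyrophosphate, was separated in the other direction and is given below.

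Of 21 tested adipogenic genes 10 were higher and 11 lower, with a median of -0.06 that was 0.05 without HFD replicate 3 and 0.07 with the macrophage mean as a covariate. Lpl, the lipoprotein lipase, was lower on every HFD array, at 10.44, 9.4 and 9.84 in ND and 8.62, 9.03 and 8.28 in HFD, yet its difference of -1.25 ± 0.79 had an unadjusted p of 0.137 with the spread estimated over all 3 feeding times. The fat regulator Pparg read 5.4, 2.77 and 3.48 in ND and 2.94, 3.39 and 3.96 in HFD, and the fatty acid binding protein Fabp4 read 9.41, 7.68 and 6.47 in ND and 6.76, 8.24 and 7.5 in HFD. ND replicate 1 was the highest array for all 3. Cfd, the complement factor adipsin, read 5.08, 7.62 and 4.32 in ND and 7.41, 6.56 and 6.75 in HFD, in the order of the macrophage genes on the ND arrays.

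Genes of lipid metabolism, the pathway nearest to the diet, gave small median differences and none passed. Of 20 tested genes of cholesterol synthesis and uptake 13 were higher in HFD, with a median of 0.12, where 47.5% of all named genes were higher. That median was -0.01 without ND replicate 3 and 0.23 without HFD replicate 3. Lss, the lanosterol synthase, read 8.82, 9.1 and 7.49 in ND and 9.23, 9.43 and 8.85 in HFD, a difference of 0.70 ± 0.38, while its second probe set gave 0.33. Insig1, the sterol sensor, read 9.78, 9.64 and 9.11 in ND and 9.94, 9.76 and 9.43 in HFD, a difference of 0.20 ± 0.31. For Lss and Insig1 ND replicate 3 was the lowest array, as it was in 12 of the 20. Tm7sf2, of the same list, was lower in HFD, at -0.37 ± 0.34, as 7 of the 20 were. Of 22 genes of fatty acid and triglyceride synthesis 9 were higher (median -0.04), and of 20 genes of fatty acid oxidation and PPAR targets 16 were higher (median 0.14). Acadm, the medium-chain acyl-CoA dehydrogenase, was separated, at 8.12, 8.15 and 7.76 in ND and 8.24, 8.24 and 8.28 in HFD (0.24 ± 0.13, unadjusted p = 0.0846). Glycolysis genes were higher in 18 of 20 (median 0.09) and hypoxia targets in 21 of 25 (median 0.12), while 21 of 29 oxidative phosphorylation genes were lower (median -0.05). Leaving out ND replicate 2 took the fatty acid oxidation median to 0.04, and leaving out ND replicate 1 took glycolysis to 0.02, hypoxia targets to 0.03 and oxidative phosphorylation to -0.01. With the macrophage mean as a covariate the medians were -0.04 for glycolysis, -0.01 for hypoxia targets and 0.05 for cholesterol genes.

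Marrow niche factors, the signals through which stromal cells keep blood stem cells, were lower in HFD in 11 of 12 tested genes, with a median of -0.39. Kitlg, the stem cell factor, read 9.37, 8.02 and 8.73 in ND and 7.98, 7.99 and 8.54 in HFD, a difference of -0.53 ± 0.51. Csf1, the growth factor of macrophages, read 9.54, 8.26 and 10.02 in ND and 8.62, 8.79 and 9.12 in HFD, a difference of -0.43 ± 0.36. ND replicate 2 was the low ND array in both. The chemokine Cxcl12 read 11.4, 10.32 and 12.12 in ND and 11.41, 12.05 and 10.87 in HFD, a difference of 0.16 ± 0.47. The niche median was -0.06 without ND replicate 3.

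Signalling and RNA processing lists held some genes with tight arrays. Of 30 tested genes of the TGF-beta and BMP pathway 22 were lower in HFD (median -0.14) and 3 were separated, all lower, where 52.5% of all named genes were lower and 4.64% separated lower. The median was -0.01 without ND replicate 3 and -0.28 without ND replicate 2. The type I receptor Bmpr1a read 7.13, 7.04 and 7.2 in ND and 6.69, 6.93 and 6.79 in HFD (-0.32 ± 0.10, unadjusted p = 0.0075, adjusted p = 0.9994). The transducer Smad2 read 8.26, 8.08 and 8.03 in ND and 7.87, 8.02 and 7.89 in HFD (-0.20 ± 0.10). Of 31 tested splicing factors 21 were lower (median -0.07), 5 were separated lower and 1 separated higher, where 4.64% and 3.4% of all named genes were. The median was -0.03 without HFD replicate 1 and -0.11 without HFD replicate 3. The RNA-binding protein Khsrp read 7.85, 7.63 and 7.86 in ND and 7.32, 7.39 and 7.32 in HFD (-0.44 ± 0.13, unadjusted p = 0.00356), and the RNA helicase Ddx6 read 9.06, 8.99 and 9.24 in ND and 8.77, 8.81 and 8.88 in HFD (-0.28 ± 0.10, unadjusted p = 0.0106). Other probe sets reached -0.03 for Khsrp and 0.04 for Ddx6. Of 16 ribosomal protein genes 15 were higher, with a median of 0.08, and ND replicate 3 was the lowest array in 14 of them. The median was 0.03 without that array.

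The genes with the widest gap between the groups are given next. They were chosen from the same difference that their p-values describe, 12 in each direction among genes with an unadjusted p under 0.05 and no overlap, so their size is a description. Every one had an adjusted p of 0.9994. The widest measured gap was that of Milr1, an inhibitory receptor of mast cells and other myeloid cells, on rat chromosome 10 (GRCr8 92184002 to 92205001). It read 2.31, 2.79 and 2.06 log2 units in ND and 6.3, 5.17 and 5.58 in HFD, a measured difference of 3.30 ± 0.69. Its ND values lie under the filter level, so that no fold is given for it, as do its means of 2.28 and 2.38 in ND after 1 and 2 months, and its HFD means were 3.42 and 2.97 at those times. With 16 added to every intensity before the logarithm the difference was 1.68. The filter used the mean over all arrays, and Milr1 cleared it only through its HFD arrays of 4 months. Its lead in this ranking is therefore no support for a difference.

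Among the other genes that stood higher in HFD were secreted proteins. Spon1, a matrix protein of the spondin family, read 4.27, 5.3 and 4.0 in ND and 6.62, 5.75 and 6.52 in HFD, a difference of 1.77 ± 0.67. Lbp, the serum protein that carries lipopolysaccharide, read 7.52, 8.8 and 7.28 in ND and 9.21, 9.33 and 8.84 in HFD, a difference of 1.26 ± 0.51. Rarres2, the adipokine chemerin, read 7.47, 7.14 and 6.08 in ND and 8.18, 7.71 and 7.98 in HFD, a difference of 1.06 ± 0.47. For Lbp the highest ND array, replicate 2, came close to the lowest HFD array.

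Membrane and enzyme genes made up much of the remainder. Enpp1 read 9.37, 9.1 and 8.16 in ND and 9.56, 9.69 and 10.25 in HFD, a difference of 0.96 ± 0.39. Adra1d, an alpha-1 adrenergic receptor, read 4.62, 5.05 and 3.89 in ND and 5.98, 5.48 and 5.2 in HFD, a difference of 1.03 ± 0.33. RT1-CE12, a class I histocompatibility gene, read 10.13, 10.39 and 9.09 in ND and 10.66, 10.53 and 10.72 in HFD, from a probe set open to cross-hybridization with related genes. ND replicate 3 was the lowest array in each. The protease-like Prss35 (1.78 ± 0.77), the alanine aminotransferase Gpt2 (0.95 ± 0.39), the kinase Tnik (0.90 ± 0.37), Echdc2 (0.74 ± 0.26) and the thymosin Tmsb15b2 (0.71 ± 0.27) complete the 12. Other probe sets of Gpt2 and Tnik gave differences as low as 0.14 and 0.22. Pbx2, a homeodomain cofactor, had the lowest p of all, at 5.96, 5.83 and 5.88 in ND and 6.26, 6.47 and 6.43 in HFD (0.50 ± 0.10, unadjusted p = 0.000187).

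**Figure D4:**
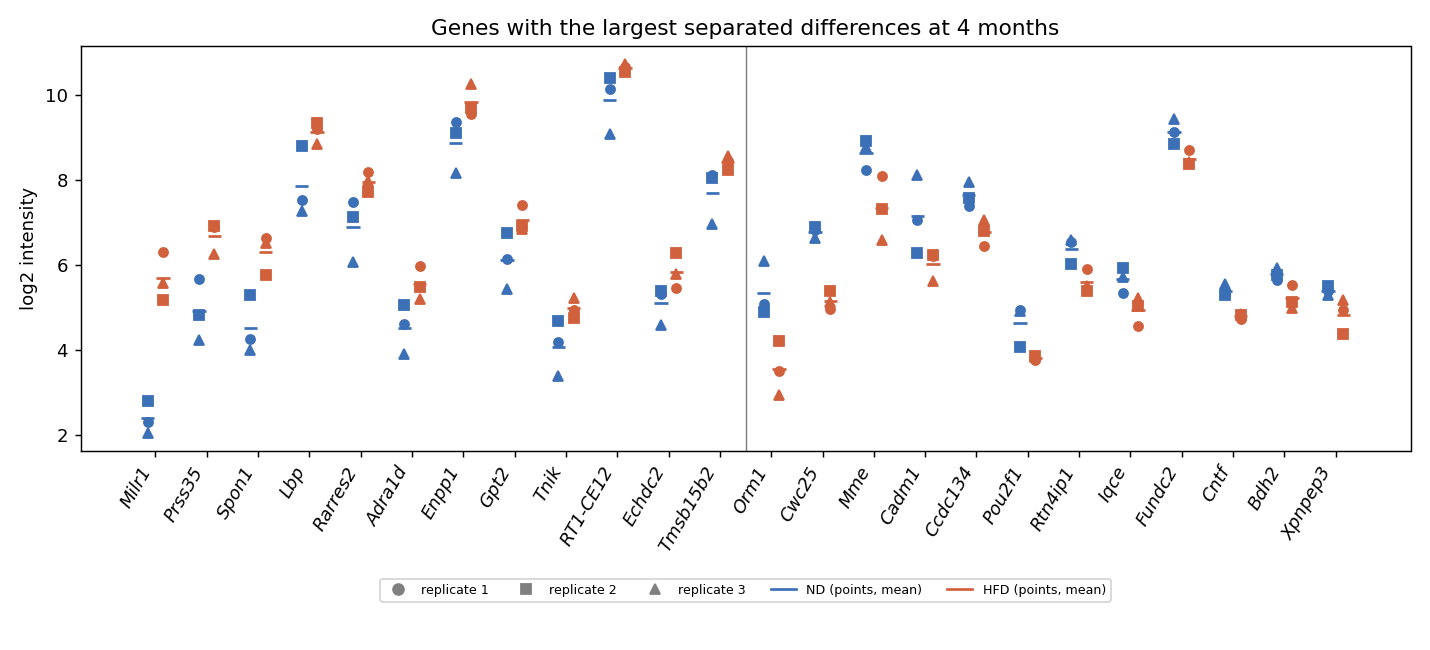
log2 intensity on each of the 6 arrays for the 12 genes with the largest separated differences in each direction at 4 months, higher in HFD left of the line and lower right of it, with ND in blue, HFD in orange, replicates by symbol and bars at the group means. The gap is widest for Milr1, whose ND arrays read 2.06 to 2.79 and HFD arrays 5.17 to 6.30, and none of the 24 passed the adjusted test. Milr1 cleared the intensity filter only through these HFD arrays.

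Lower in HFD stood Cwc25, a splicing factor of the spliceosome's catalytic step, with little spread in either group. It read 6.81, 6.9 and 6.64 in ND and 4.97, 5.38 and 5.14 in HFD, a difference of -1.62 ± 0.36 (unadjusted p = 0.000443). Orm1, an acute phase glycoprotein, read 5.08, 4.88 and 6.1 in ND and 3.52, 4.22 and 2.95 in HFD, a difference of -1.79 ± 0.62. HFD replicate 3 lay under the filter level of 3.22 for Orm1 and HFD replicate 1 near it. With 16 added to every intensity before the logarithm the difference was -1.03. Mme, the membrane peptidase neprilysin found on stromal cells, read 8.22, 8.92 and 8.78 in ND and 8.09, 7.32 and 6.58 in HFD, a difference of -1.31 ± 0.38. For Mme the highest HFD array came close to the lowest ND array. Ccdc134, a secretory pathway protein, read 7.38, 7.57 and 7.96 in ND and 6.44, 6.8 and 7.06 in HFD, a difference of -0.87 ± 0.19 (unadjusted p = 0.0004). Cntf, the ciliary neurotrophic factor, read 5.33, 5.3 and 5.54 in ND and 4.73, 4.81 and 4.84 in HFD, a difference of -0.60 ± 0.15. Each of these has 1 tested probe set.

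The other genes lower in HFD were the adhesion molecule Cadm1 (-1.13 ± 0.50), the octamer-binding factor Pou2f1 (-0.82 ± 0.23), the mitochondrial proteins Rtn4ip1 (-0.78 ± 0.30), Fundc2 (-0.64 ± 0.18) and Xpnpep3 (-0.56 ± 0.19), the ciliary protein Iqce (-0.72 ± 0.21) and the dehydrogenase Bdh2 (-0.56 ± 0.21). A second probe set gave 0.05 for Iqce and 0.16 for Fundc2. Cisd2, an iron-sulfur protein of the outer mitochondrial and reticulum membranes, read 9.04, 8.85 and 9.14 in ND and 8.48, 8.41 and 8.73 in HFD (-0.47 ± 0.11). Its other probe sets reached -0.10. Under the alternative settings and left-out arrays tried, none of these genes of widest gap changed sign and none passed.

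The difference between times was tested directly, because a gene that passes at 2 months and not at 4 is not thereby shown to differ. The diet effect at 4 months minus that at 2 months passed for 0 of 21729 probe sets, with 2060 (9.48%) at an unadjusted p under 0.05, and minus that at 1 month for 0, with 707 (3.25%), or 2.98% of named genes. Among named genes Ccdc71l and Sfrp1 were nearest to the threshold. For Ccdc71l the difference between times was -1.51 log2 units (adjusted p = 0.052). It read 7.12, 7.0 and 6.88 in ND and 6.42, 6.32 and 6.67 in HFD at 4 months, a difference of -0.53 ± 0.15, against 0.97 at 2 months (adjusted p = 0.00934). For Sfrp1, a secreted antagonist of WNT signals, it was 4.31 (adjusted p = 0.052). It read 9.12, 9.61 and 8.91 in ND and 10.08, 10.17 and 8.63 in HFD at 4 months, a difference of 0.41 ± 0.47, against -3.90 at 2 months (adjusted p = 0.00418). Against 1 month the lowest adjusted p was 0.9995. Axin2, a feedback inhibitor of WNT signals, was among the 6 named genes with the smallest unadjusted p there, at 4.45, 4.3 and 4.59 in ND and 4.7, 4.67 and 4.61 in HFD.

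The 285 named genes that passed at 2 months (2.49%) were then followed to 4 months, where they were measured on separate arrays. The spread behind the p-values and intervals is shared by all 18 arrays, so the tests at both times are not independent. Genes that passed at 2 months tend to have a small shared spread, which also enters their p-values and intervals at 4 months. The 126 that were higher in HFD at 2 months, with a median of 0.89, split into 63 higher and 63 lower at 4 months, with a median of 0.00. Of the 159 that were lower at 2 months, with a median of -0.96, 75 were higher and 84 lower at 4 months, with a median of -0.01. None of the 285 passed at 4 months, and 19 (6.67%) had an unadjusted p under 0.05, against 3.04% of all named genes. For 240 of them the 95% interval at 4 months lay within a 2-fold change, as it did for 86.3% of all named genes. Across all 11446 named genes the 4-month difference had a correlation of r = -0.0046 and rho = 0.081 with the 2-month difference and of r = 0.21 and rho = 0.23 with the 1-month difference, as a description over genes that are not independent.

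**Figure D5:**
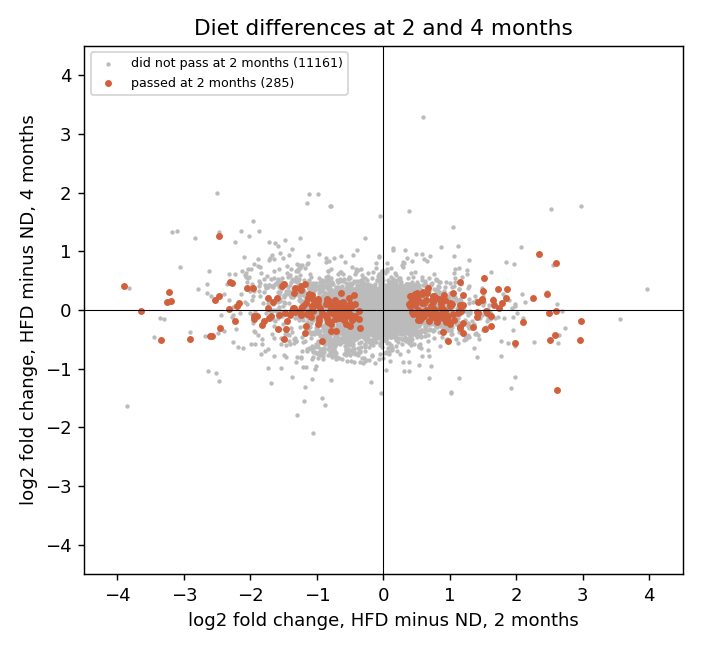
Difference HFD minus ND in log2 units after 2 months (x axis) and 4 months (y axis) for 11446 named genes, each time from its own 6 arrays; the 285 genes that passed at 2 months are orange. They spread widely along the x axis and stay near 0 on the y axis, where their medians were 0.00 for those higher and -0.01 for those lower at 2 months.

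Named genes show this in single arrays. Cxcl12 had stood at -3.20 (adjusted p = 0.00922) at 2 months and its 4-month arrays overlap, as given above. The acute phase protein haptoglobin, Hp, read 8.39, 7.35 and 8.88 in ND and 7.28, 7.98 and 7.84 in HFD at 4 months, -0.51 ± 0.46 against -3.34 at 2 months (adjusted p = 0.00623). Il1rn, the interleukin-1 receptor antagonist, read 9.42, 9.27 and 7.78 in ND and 9.16, 8.58 and 9.13 in HFD, 0.13 ± 0.55 against -3.25 (adjusted p = 0.0117). Casq2, a calcium store protein of muscle, read 4.99, 5.32 and 4.98 in ND and 4.79, 4.43 and 4.5 in HFD, -0.52 ± 0.40 against 2.50 (adjusted p = 0.00965). The tests of these changes between times gave adjusted p-values of 0.18 for Cxcl12, 0.208 for Hp and Il1rn and 0.153 for Casq2.

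A few genes that passed at 2 months had separated arrays at 4 months as well. Enpp1 stood on the same side at both times, at 2.35 after 2 months (adjusted p = 0.011) and 0.96 after 4. Plod2, a collagen lysyl hydroxylase, did too, at 0.66 after 2 months (adjusted p = 0.0178) and 0.30 ± 0.13 after 4, where it read 11.31, 11.15 and 11.31 in ND and 11.4, 11.58 and 11.68 in HFD. Lbp stood on opposite sides, at -2.48 after 2 months (adjusted p = 0.0247) and 1.26 after 4, and its difference between times of 3.74 had an adjusted p of 0.18. Of the 285, 15 were separated higher and 18 separated lower at 4 months, together 33, where 8.04% of all named genes were separated.

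The lists differed in how their 2-month medians compared with those at 4 months. Cholesterol genes were higher in HFD in 0 of 20 at 2 months (median -0.94) and in 13 of 20 at 4 months (median 0.12), where 44.7% and 47.5% of all named genes were higher. Complement and acute phase genes were higher in 0 of 12 at 2 months (median -2.12) and in 6 of 12 at 4 months (median -0.02). Macrophage markers were higher in 0 of 29 at 2 months (median -1.72) and in 26 of 29 at 4 months (median 0.41). The mitosis genes were higher in 1 of 57 at 2 months (median -0.79), in 0 of 57 at 4 months (median -0.66) and in 10 of 57 at 1 month (median -0.17), where 37.4% of all named genes were higher at 1 month. No member of these lists passed the test of the difference between times.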

How the data were processed

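The authors deposited linear intensity values per probe set, summarised with RMA per the submitters' processing notes. The table held 31099 probe sets, 57 of them controls. Log2 was taken with no constant added. The column of ND 1-month replicate 1, not an array of 4 months, was moved by 1343 rows to line up with its probe sets. The dimmest 30% by mean over all arrays were left out, leaving 21729 probe sets. Platform annotation gave 1 symbol to 20832 probe sets, several to 436 and none to 9831. limma 3.58.1 in R 4.3.3 fitted 1 mean per diet and time over the 18 arrays (12 residual degrees of freedom), two-sided, with Benjamini-Hochberg adjustment over all tested probe sets, and was tested on simulated data. The number of arrays limits the precision. The rule named the 12 largest separated differences each way, 5 each way by moderated t, 4 per list, 12 per cell cycle list, 6 per difference between times and defining markers; fewer are printed. The members and the 41 lists were chosen with earlier results of these data known. Residuals of same-numbered arrays correlated at -0.19, -0.15 and 0.24, so the numbers were not taken as pairs. Motifs were counted in RefSeq promoters of GRCr8.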

Additional observations from a re-analysis of the deposited data

How the results depend on the processing

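No probe set passed at 4 months under any alternative except without HFD 4-month replicate 1, where 1 unnamed probe set did (leaving out single arrays gave 0 to 1). It read 3.37, 3.48 and 4.24 in ND and 4.11, 5.73 and 5.74 in HFD, and its difference was 2.04 ± 0.24 (limma adjusted p = 0.02) without that array and 1.5 ± 0.35 with it. The 811 probe sets at an unadjusted p under 0.05 became 2927 with array weights, 392 with all probe sets of each gene averaged, 1316 with no intensity filter, and 570 to 2221 with single arrays left out, 2221 without ND replicate 2. For the 4-month minus 2-month difference the count of 0 became 640 with array weights, which gave the ND arrays of 4 months weights of 2.69, 0.48 and 0.60. It became 5 with an intensity trend, with median centring or without probe sets whose names end in _s_at, _x_at or _a_at. With single arrays left out it was 0 to 4, 4 without HFD replicate 3. The cause was not tested. The 4-month minus 1-month count stayed at 0 in all alternatives. With the replicate number as a block 0 passed and 750 had an unadjusted p under 0.05. Of 820 list medians under alternatives 27 moved by more than the spread between replicates. Cd68, Lyz2, Creld2, Csf3, Pparg, Fabp4, Cxcl12 and Il1rn changed sign under at least one alternative. Values near the filter level limit what dim genes can show.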
